A study of Homo sapiens with 240 samples.

Results

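Most members of the SLC25 family encode carriers of the mitochondrial inner membrane. In each of 5 expression tables, 48 protein-coding genes whose symbol begins with SLC25A were listed among 27234 genes. A carrier was analysed where it reached 1 TPM (a level scaled for transcript length and library total) in at least 3 libraries of a table. By that rule 40 of the 48 carriers were analysed in the AMPK, FNIP1, TFEB and TFE3, and ESRRA tables. There were 39 in the PGC1A data, without SLC25A53, so 39 carriers were shared by every table. SLC25A2, SLC25A18, SLC25A31, SLC25A34, SLC25A41, SLC25A47 and SLC25A52 did not exceed 0.457 TPM in any library, and SLC25A6, an ADP/ATP carrier, was listed at 0 throughout, which can be a failed estimate and does not show that it is absent.

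SLC25 proteins share a fold of repeated membrane-spanning segments. Most exchange metabolites, nucleotides, cofactors and ions between the cytosol and the mitochondrial matrix. The ADP/ATP carriers export the ATP made by oxidative phosphorylation, the phosphate carrier supplies its phosphate, and the aspartate-glutamate, oxoglutarate and dicarboxylate carriers move reducing equivalents and carbon. Other members carry coenzyme A, NAD, folate, pyrimidine nucleotides, amino acids, acylcarnitines, iron or glutathione. AMPK is the kinase that senses a shortage of ATP. FNIP1 is one of its substrates, TFEB and TFE3 are transcription factors of lysosome genes, and ESRRA with its coactivator PGC1a drives mitochondrial genes.

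Polyadenylated RNA from HEK293T, an established line derived from human embryonic kidney, was measured in 240 libraries, as 80 groups of 3. In the AMPK table, AMPK WT and AMPK knock out (KO) cells received DMSO (0 h), or 991 (a direct AMPK activator), CCCP (an uncoupler of the proton gradient), Phen (phenformin, a biguanide that inhibits complex I) or Rot (rotenone, a complex I inhibitor) for 2, 4, 8 and 16 h. The other tables compared 991 with DMSO. The FNIP1 table held cells that lack their own FNIP1 and carry either the WT protein or SA5, in which 5 residues phosphorylated by AMPK are alanine, over 2 to 16 h. The remaining tables held TFEB and TFE3 WT or double knockout (DKO) cells, ESRRA WT or KO cells, and cells with a control siRNA (siControl) or an siRNA against PGC1a (siPGC1A), over 2 to 24 h. Doses and the number of clones behind each knockout are not given in the sources used here. Nothing in the labels says that replicates were separate cultures, so p-values measure the spread between these libraries, which may be technical. DMSO was sampled at 0 h only, so a change with a compound also carries the time in culture. In bulk RNA, fewer cells and less RNA per cell cannot be told apart.

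The targeted genes followed the labels to different degrees. PRKAA1, a catalytic AMPK subunit, ran from 6.03 to 10.6 TPM in WT and from 2.15 to 3.73 TPM in KO libraries, without overlap. PRKAA2, the other catalytic subunit, ran from 3.77 to 7.40 TPM in WT and from 2.55 to 4.87 TPM in KO libraries, with overlap. PPARGC1A ran from 0.254 to 0.484 TPM with siControl and from 0.015 to 0.107 TPM with siPGC1A. It was thus below the 1 TPM filter in every library of both arms. ESRRA (8.01 to 12.7 TPM in WT, 4.44 to 8.46 TPM in KO), TFEB and TFE3 overlapped between arms, so they check those labels only in part. In the FNIP1 table, SA5 DMSO replicate 1 and SA5 8 h replicate 1 stood apart, with FNIP1 at 5.47 and 45 TPM against a median of 174 TPM over the SA5 libraries. The summed carriers in SA5 DMSO replicate 1 came to 1253 TPM against 1519 and 1517 TPM in the other 2 SA5 DMSO libraries. The 3 WT phenformin libraries at 2 h and the 3 WT CCCP libraries at 4 h carry a description and a title text that name another compound or time. They were placed by their treatment and time tags, which match the library code at the end of the title. Of 10 kidney cell type markers and 10 markers of other cell types, LRP2, COL1A1 and COL3A1 passed the filter, and they reached at most 4.294, 5.639 and 2.738 TPM. All 3 fell in WT cells at 16 h with 991, CCCP and rotenone, and none was called with phenformin; their part in the carrier results was not tested.

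Promoter sequence from RefSeq (GRCh38.p14; 250 bases before to 50 after a gene's start) was matched to 34 of the 40 carriers by symbol. CACGTG, the core letters of the E-box that TFEB and TFE3 bind and the same on both strands, was in 6 of 34 windows (17.6%) and in 2030 of all 27305 windows (7.4%). The 6 were SLC25A13, SLC25A33, SLC25A36, SLC25A38, SLC25A46 and SLC25A51. On either strand, AAGGTCA, the core letters of an ESRRA site, and GCGCATGC, those of an NRF1 site, were in 0 of 34 windows, against 4.0% and 3.3% of all windows. TGATGNAA, core letters of the amino acid response element, was in 1 window, that of SLC25A11 (2.9%, against 3.7% of all). A match is a description only, and no match says only that those letters were not in the window.
Windows are shown for 1 carrier that rose (SLC25A42) and 1 that fell (SLC25A4) with 991 in the control arm of every table, and for 2 carriers whose response differed in TFEB and TFE3 DKO cells (SLC25A13 and SLC25A33); capitals mark CACGTG, and each is written 5′ to 3′ on the gene's strand. They lie at chr19:19063744-19064043 (plus strand), chr4:185143016-185143315 (plus), chr7:96322049-96322348 (minus) and chr1:9539215-9539514 (plus).
SLC25A42: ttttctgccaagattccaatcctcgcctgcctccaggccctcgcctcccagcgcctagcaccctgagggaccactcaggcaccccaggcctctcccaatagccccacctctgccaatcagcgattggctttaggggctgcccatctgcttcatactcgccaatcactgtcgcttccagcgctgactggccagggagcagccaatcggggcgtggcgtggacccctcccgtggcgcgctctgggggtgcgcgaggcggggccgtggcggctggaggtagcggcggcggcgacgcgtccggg
SLC25A4: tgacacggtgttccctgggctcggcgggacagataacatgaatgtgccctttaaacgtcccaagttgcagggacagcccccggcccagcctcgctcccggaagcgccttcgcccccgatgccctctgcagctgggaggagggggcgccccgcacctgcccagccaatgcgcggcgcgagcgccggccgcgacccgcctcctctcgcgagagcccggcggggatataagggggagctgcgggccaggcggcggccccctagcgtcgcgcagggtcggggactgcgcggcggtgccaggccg
SLC25A13: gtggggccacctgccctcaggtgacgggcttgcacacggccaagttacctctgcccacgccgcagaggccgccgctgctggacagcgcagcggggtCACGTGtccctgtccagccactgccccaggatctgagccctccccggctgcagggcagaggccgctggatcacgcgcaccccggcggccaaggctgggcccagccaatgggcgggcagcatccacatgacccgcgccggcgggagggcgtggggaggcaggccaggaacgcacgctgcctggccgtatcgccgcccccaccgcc
SLC25A33: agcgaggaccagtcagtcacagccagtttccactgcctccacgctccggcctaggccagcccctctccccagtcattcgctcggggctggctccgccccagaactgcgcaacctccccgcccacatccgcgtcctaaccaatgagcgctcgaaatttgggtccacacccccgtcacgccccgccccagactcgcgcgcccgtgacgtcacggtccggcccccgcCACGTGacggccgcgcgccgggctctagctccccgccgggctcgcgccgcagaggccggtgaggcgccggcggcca

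Carrier levels spanned more than 2 orders of magnitude in untreated cells. In AMPK WT cells with DMSO, SLC25A5, an ADP/ATP carrier, had the highest level (617 ± 2.75 TPM, SD, n = 3), followed by SLC25A3, the phosphate carrier (286 ± 3.15 TPM), and SLC25A39, a glutathione carrier (150 ± 1.39 TPM). SLC25A11, the oxoglutarate carrier (93.3 ± 3.90 TPM), SLC25A1, the citrate carrier (67.05 ± 3.88 TPM), SLC25A23, an ATP-Mg/phosphate carrier (40.6 ± 1.70 TPM), and SLC25A10, the dicarboxylate carrier (33.8 ± 1.93 TPM), came next. The gaps between these 7 neighbours exceeded their spread. In all, 3 carriers were above 100 TPM, 19 between 10 and 100 TPM and 18 below 10 TPM. SLC25A5, SLC25A3 and SLC25A39 together made up 57.4 to 66.6% of the summed carrier TPM in the libraries of the AMPK table. SLC25A5 has many processed pseudogenes and SLC25A51 a near copy, SLC25A52; how reads shared by such copies were counted is not given in the sources used here, so those levels are uncertain. The files kept another transcript between tables for 8 of the analysed carriers, so levels are compared within a table. For SLC25A13, SLC25A14, SLC25A17 and SLC25A44 the transcript kept in the AMPK table has a non-coding accession. The transcript kept for SLC25A44 was not the same in every table.

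In AMPK WT cells the summed carrier TPM was 1633 ± 7.25 with DMSO (SD, n = 3 here and below). At 16 h it was 1514 ± 4.95 with 991, 1531 ± 32.2 with CCCP, 1296 ± 4.42 with phenformin and 1524 ± 4.23 with rotenone. Phenformin thus gave the lowest sum of the 4 compounds, and every one of its 3 libraries was below all others. The same held in KO cells, where the sum was 1515 ± 3.65 with DMSO and 1211 ± 4.91 with phenformin. Single carriers moved in both directions. Over the 32 AMPK comparisons with DMSO, 15 to 80.1% of all genes were called. A change below is a difference on the log2(TPM + 1) scale, which understates the change of carriers near 1 TPM, and called means an adjusted p under 0.05 by limma over all genes of the table. Comparisons within an arm share the DMSO libraries. Groups of 3 libraries without overlap were common among the carriers. In WT cells at 16 h they were found for 25 of 40 carriers with 991, 34 with CCCP, 32 with phenformin and 24 with rotenone. The share of all genes without overlap in these comparisons is not given here. A lack of overlap below therefore describes the levels and does not set a carrier apart.

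In WT cells at 16 h, 11 carriers rose and 13 fell with 991, where 41.9% of all 13617 genes rose and 26.9% fell. With CCCP 17 rose and 14 fell (44.1% and 26.6% of all genes), with phenformin 14 and 15 (45.3% and 34.9%), and with rotenone 9 and 12 (36.2% and 29.2%). Median-ratio scaling moved the splits to 7 higher and 16 lower with 991, 8 and 16 with CCCP and 9 and 21 with phenformin. Quantile scaling gave 9 and 15 with CCCP and 9 and 18 with phenformin. With median-ratio scaling the median of all genes went from 0.071 to -0.006 with 991 and from 0.091 to -0.002 with CCCP. With phenformin it went from 0.073 to -0.021. The share of all genes called under another scaling is not given, here or below. Splits under another scaling are therefore not read as results about the carriers. The median carrier change was 0.03, 0.09, -0.03 and -0.01 with 991, CCCP, phenformin and rotenone, beside 0.07, 0.09, 0.07 and 0.03 for all genes. The shares of all genes at 16 h are also those to set beside the 16 h counts of smaller groups below. At 2 h of 991, 1 carrier rose and 2 fell (5.94% and 11.4% of all genes).

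**Figure D1:**
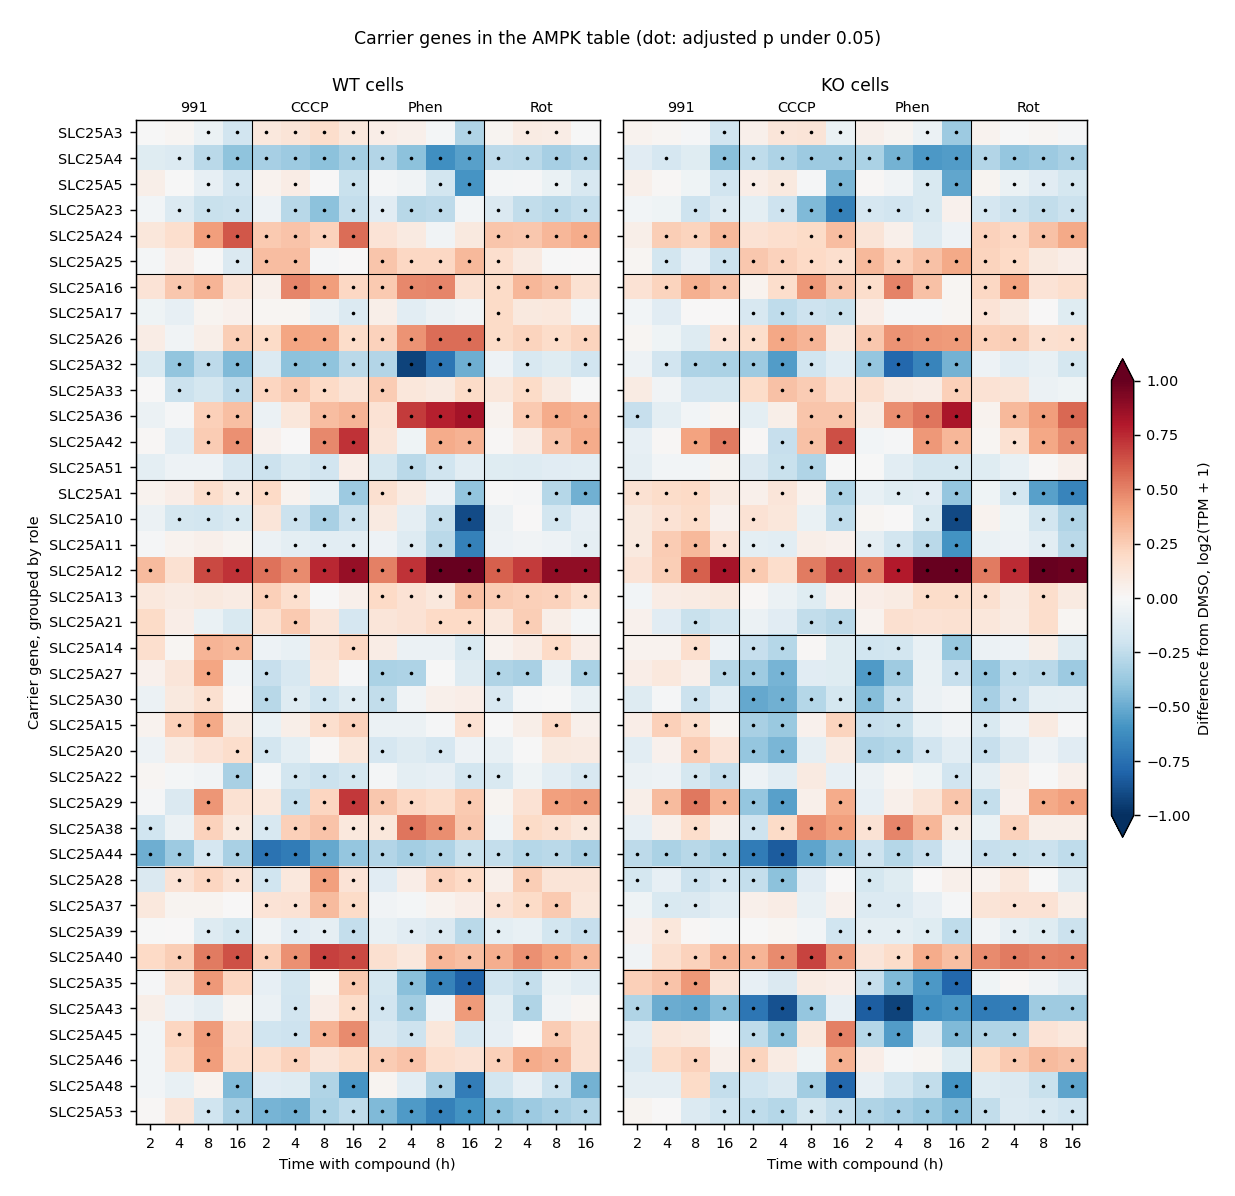
Change of 39 of the 40 carriers (rows, grouped by role) in AMPK WT and KO cells after 991, CCCP, Phen or Rot for 2, 4, 8 and 16 h, as the log2(TPM + 1) difference from DMSO of the same arm, with colour limits at -1 and 1 and a dot where the adjusted p was under 0.05. SLC25A12 is higher and SLC25A4 and SLC25A44 are lower in nearly every column, and SLC25A43 is lower across the KO columns.

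Of the 6 analysed adenine nucleotide and phosphate carriers, 1 rose and 5 fell with 991 in WT cells at 16 h, with a median change of -0.19; with CCCP 2 rose and 3 fell, and with phenformin and rotenone 1 rose and 3 fell. SLC25A4, the ADP/ATP carrier typical of heart and muscle, was at 18.96, 17.7 and 18.6 TPM with DMSO in WT cells and at 13.6, 13.8 and 13.8 TPM after 16 h of 991. No library overlapped between those groups, and the change was -0.40 ± 0.06 (SE; adjusted p = 9.6e-09). SLC25A4 was called lower in 15 of the 16 WT comparisons (13 of 14 without the libraries whose description disagrees) and in 14 of 16 KO comparisons. At 16 h it fell in WT cells by 0.34 with CCCP, 0.54 with phenformin and 0.29 with rotenone, and in KO cells by 0.42 with 991.

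SLC25A5, the ADP/ATP carrier of dividing cells, was at 616, 615 and 620 TPM with DMSO in WT cells and at 411, 409 and 411 TPM after 16 h of phenformin (-0.59 ± 0.02, adjusted p = 1.2e-36). That fall was called under every alternative scaling and with each replicate left out. With 991 the levels were 544, 536 and 541 TPM, between those of DMSO and phenformin (-0.19, adjusted p = 1.8e-11), but with quantile scaling the sign turned to 0.06. With CCCP the change was -0.22, or 0.07 with quantile scaling. SLC25A3, the phosphate carrier, was at 290, 284 and 285 TPM with DMSO and at 230, 234 and 233 TPM with phenformin (-0.30 ± 0.02, adjusted p = 4e-19), and its change with rotenone was -0.01 (adjusted p = 0.82). SLC25A24, a calcium-regulated ATP-Mg/phosphate carrier, went the other way. It was at 14.7, 16.5 and 16.5 TPM with DMSO and 25.2, 24.8 and 25.1 TPM with 991, a rise of 0.62 ± 0.08 (adjusted p = 3.6e-10), and it had a change of 0.10 with phenformin (adjusted p = 0.26).

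Of the 6 carboxylate and redox shuttle carriers, 3 rose and 3 fell with phenformin, 2 rose and 1 fell with 991, 1 rose and 3 fell with CCCP, and 2 rose and 2 fell with rotenone. SLC25A12, the aspartate-glutamate carrier aralar, part of the malate-aspartate shuttle, was at 3.42, 4.04 and 4.03 TPM with DMSO in WT cells. At 16 h it was at 6.80, 6.78 and 7.27 TPM with 991, 7.65, 7.40 and 8.36 TPM with CCCP, 8.74, 8.72 and 8.82 TPM with phenformin, and 8.37, 7.71 and 7.71 TPM with rotenone. All 12 treated libraries were above all DMSO libraries. The rises were 0.72 ± 0.10 with 991, 0.87 ± 0.10 with CCCP, 1.02 ± 0.10 with phenformin and 0.89 ± 0.10 with rotenone (adjusted p = 3.9e-09, 1e-11, 1e-14 and 1.1e-11). SLC25A12 was called higher in 15 of 16 WT comparisons (13 of 14 without the libraries whose description disagrees) and 14 of 16 KO comparisons. In KO cells at 16 h it rose by 0.83, 0.68, 1.08 and 0.98 with 991, CCCP, phenformin and rotenone.

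SLC25A10, the dicarboxylate carrier, was at 31.7, 35.4 and 34.3 TPM with DMSO and at 19.2, 17.8 and 16.1 TPM after 16 h of phenformin in WT cells (-0.90 ± 0.06, adjusted p = 2.8e-24). With rotenone it was at 31.1, 31.7 and 32.4 TPM, within the DMSO range or just under it (-0.09, adjusted p = 0.18). SLC25A11, which exchanges oxoglutarate for malate, was at 89.05, 96.7 and 93.99 TPM with DMSO and 59.6, 56.5 and 57.4 TPM with phenformin (-0.68 ± 0.03, adjusted p = 8.6e-30). SLC25A1, the citrate carrier that exports acetyl units for lipid synthesis, was lowest with rotenone, at 46.6, 49.7 and 47.1 TPM against 63.01, 70.8 and 67.4 TPM with DMSO (-0.48 ± 0.05, adjusted p = 2.8e-13). It fell by 0.39 with phenformin and by 0.37 with CCCP. In KO cells SLC25A1 fell by 0.66 with rotenone.

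**Figure D2:**
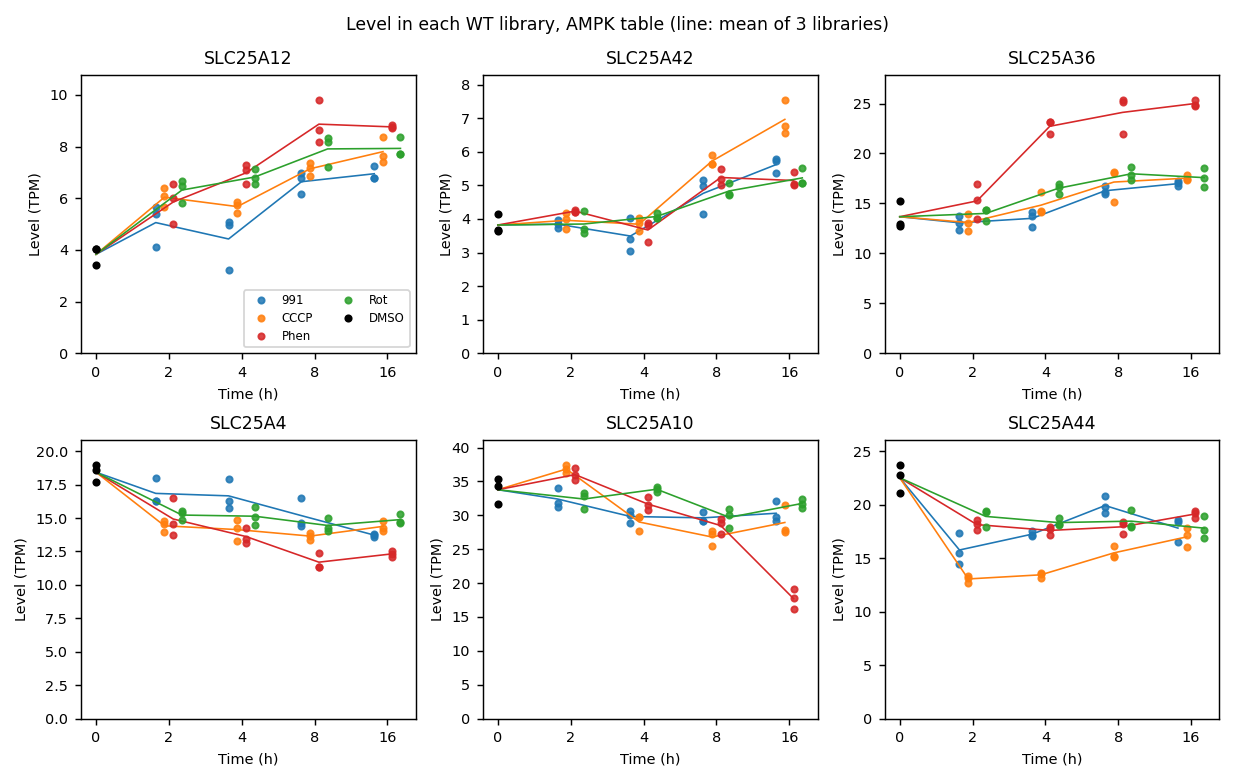
TPM of SLC25A12, SLC25A42, SLC25A36, SLC25A4, SLC25A10 and SLC25A44 in AMPK WT cells against hours of treatment, 1 point per library, with 0 h the 3 DMSO libraries and lines through the means of the 3 libraries for 991, CCCP, Phen and Rot. SLC25A12 and SLC25A42 lie above DMSO at 16 h with every compound, SLC25A4 and SLC25A44 below it, and SLC25A10 falls below 20 TPM with Phen alone among these 4 compounds.

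Among the 9 carriers of cofactors and other nucleotides, 4 rose and 2 fell with CCCP and with phenformin, 3 rose and 2 fell with 991, and 3 rose and 1 fell with rotenone. SLC25A42, the mitochondrial coenzyme A carrier, was at 4.14, 3.66 and 3.66 TPM with DMSO in WT cells and at 7.55, 6.78 and 6.57 TPM after 16 h of CCCP (0.72 ± 0.06, adjusted p = 6.1e-18). With 991 it was at 5.36, 5.78 and 5.72 TPM (0.46 ± 0.06, adjusted p = 2.9e-10), and it rose by 0.35 with phenformin and 0.37 with rotenone. No treated library at 16 h overlapped with DMSO. It was not called with any compound at 2 or 4 h in WT cells.

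SLC25A36, a pyrimidine nucleotide carrier, was at 15.3, 12.8 and 12.96 TPM with DMSO and at 25.4, 24.8 and 24.9 TPM after 16 h of phenformin (0.83 ± 0.08, adjusted p = 1.5e-15). With rotenone it was at 18.6, 16.6 and 17.5 TPM (0.34, adjusted p = 0.00012), above DMSO and below phenformin. The phenformin rise was already 0.70 at 4 h. SLC25A32, the folate and FAD carrier, had the largest fall of any carrier at 4 h of phenformin, from 16.3, 16.9 and 16.1 TPM to 9.60, 7.22 and 7.86 TPM at 4 h (-0.93 ± 0.06, adjusted p = 4.6e-21). At 16 h it was at 11.7, 10.96 and 11.6 TPM, still below all DMSO libraries (-0.49). SLC25A26, the S-adenosylmethionine carrier, rose from 8.23, 8.31 and 7.47 TPM to 12.6, 12 and 12.05 TPM with phenformin (0.56 ± 0.06, adjusted p = 4.7e-13).

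Of the 6 amino acid and acylcarnitine carriers, 3 rose and 2 fell with CCCP and with phenformin, and 2 rose and 2 fell with 991 and with rotenone. SLC25A44, a carrier of branched-chain amino acids, fell within 2 h in WT cells, by more than any other carrier at 2 h of 991 or CCCP. It went from 23.7, 21.1 and 22.8 TPM with DMSO to 12.7, 13.4 and 13.2 TPM after 2 h of CCCP (-0.74 ± 0.05, adjusted p = 1.4e-21). It fell by 0.49 after 2 h of 991. At 16 h of 991 it was at 18.6, 16.5 and 18.4 TPM (-0.32 ± 0.05, adjusted p = 1.5e-08), nearer to DMSO than at 2 h but without overlap. SLC25A44 was called lower in 16 of 16 WT comparisons (14 of 14 without the libraries whose description disagrees) and 15 of 16 KO comparisons. SLC25A29, a carrier of basic amino acids, rose with CCCP from 2.72, 3.53 and 3.13 TPM to 6.61, 5.89 and 4.77 TPM (0.71 ± 0.09, adjusted p = 6.7e-11) and by 0.43 with rotenone. SLC25A38, the glycine carrier of heme synthesis, rose by 0.53 at 4 h and 0.27 at 16 h of phenformin.

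Of the 4 iron and glutathione carriers, 3 rose and 1 fell with CCCP, 2 rose and 1 fell with 991 and with phenformin, and 1 rose and 1 fell with rotenone. The 2 glutathione carriers moved in opposite directions. SLC25A40 was at 4.29, 4.4 and 4.49 TPM with DMSO in WT cells and 7.53, 7.36 and 7.21 TPM with 991 at 16 h (0.63 ± 0.07, adjusted p = 1.9e-11), while SLC25A39 fell by 0.17 with 991 and by 0.27 with phenformin; the phenformin call of SLC25A39 was lost in 1 of 9 alternatives. Of the 3 uncoupling-protein-like carriers (SLC25A14, SLC25A27 and SLC25A30), none was called higher with phenformin or rotenone, and SLC25A14 rose with 991 by 0.32 (adjusted p = 1.2e-05).

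The 6 carriers with less defined substrates had a median change of -0.38 with phenformin, against 0.09 with 991, 0.18 with CCCP and -0.04 with rotenone. SLC25A35 was at 3.08, 2.43 and 2.71 TPM with DMSO and 1.09, 1.09 and 1.22 TPM with phenformin (-0.81 ± 0.10, adjusted p = 2.8e-11). SLC25A48, at 2.43, 2.17 and 2.10 TPM with DMSO, was at 1.11, 1.029 and 0.869 TPM with phenformin and fell by 0.44 with 991, 0.59 with CCCP, 0.69 with phenformin and 0.47 with rotenone. SLC25A53 fell by 0.32, 0.25, 0.59 and 0.29 with the same compounds.

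The remaining carriers are given by their calls over time. Over the 16 WT comparisons, SLC25A13, the other aspartate-glutamate carrier, was called higher in 10 and lower in 0, with its largest rise at 16 h of phenformin (0.30, adjusted p = 3.1e-08). SLC25A16 was called higher in 11 and lower in 0, with 0.49 at 8 h of phenformin. SLC25A37, the iron carrier mitoferrin-1, and SLC25A46, an outer membrane relative linked to mitochondrial shape, were each called higher in 7 and lower in 0, with 0.32 at 8 h of CCCP and 0.41 at 8 h of 991. SLC25A15, the ornithine carrier, rose by 0.38 and SLC25A27 by 0.39 at 8 h of 991, while SLC25A27 fell by 0.32 at 16 h of rotenone. SLC25A45 rose by 0.47 at 16 h of CCCP. SLC25A22, a glutamate carrier, was called lower in 7 and higher in 0, with its largest fall at 16 h of 991 (-0.33). SLC25A51, an NAD carrier, was called lower in 4 and higher in 0, and SLC25A30 lower in 6 and higher in 1. The changes of SLC25A17, SLC25A20 and SLC25A21 stayed between -0.19 and 0.26 in every WT comparison.

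Genes that work beside the carriers were taken from 2 lists. Of 14 other inner membrane transporters, 3 rose and 8 fell in WT cells after 16 h of phenformin (median -0.26). Of the 12 outer membrane channel and carrier import genes analysed, 2 rose and 7 fell (median -0.30). Among all genes 45.3% rose and 34.9% fell in that comparison (median 0.07). SFXN2, a sideroflexin, fell by 2.09 ± 0.07 and MPC1, of the pyruvate carrier, by 0.56, while MCU, the calcium uniporter, rose by 0.80 ± 0.07. On the route by which carriers enter the inner membrane, TIMM10B fell by 1.40 ± 0.06 and TOMM40 by 0.70, while TIMM9, a chaperone of the intermembrane space, rose by 0.91 ± 0.06. UCP2, an SLC25 carrier under another symbol, fell by 0.81 ± 0.06. With 991, CCCP and rotenone the inner membrane list had 5 higher and 7 lower, 6 and 7, and 6 and 7.

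Phenformin and rotenone both inhibit complex I and were compared in WT cells at 16 h; doses are not given, so the comparison is not matched for dose. In this comparison 11 carriers were higher and 14 lower with phenformin than with rotenone, where 40.1% of all genes were higher and 29.3% lower. Median-ratio scaling gave 5 higher and 16 lower and quantile scaling 6 and 15. The difference was -0.81 ± 0.06 for SLC25A10, -0.70 ± 0.10 for SLC25A35 and -0.59 ± 0.03 for SLC25A11 (adjusted p = 1e-21, 4e-09 and 4e-26). SLC25A5 differed by -0.43 ± 0.02 and SLC25A3 by -0.29. On the other side SLC25A36 differed by 0.49 ± 0.08 (adjusted p = 1e-07), SLC25A43 by 0.40, SLC25A26 by 0.33 and SLC25A25, an ATP-Mg/phosphate carrier, by 0.32. These 9 differences were called under every alternative. The calls of SLC25A13, SLC25A15, SLC25A21, SLC25A30, SLC25A33 and SLC25A38 were each lost with another scaling. In KO cells 9 carriers were higher and 18 lower with phenformin than with rotenone (34.2% and 33.1% of all genes), with SLC25A35 at -0.69, SLC25A10 at -0.60 and SLC25A11 at -0.33.

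CCCP and rotenone differed at fewer carriers in WT cells, with 8 higher and 1 lower with CCCP (23.7% and 9.80% of all genes; 7 and 6 with median-ratio and 6 and 9 with quantile scaling). SLC25A42 was higher with CCCP by 0.36 ± 0.06 (adjusted p = 1e-06) and SLC25A40 by 0.33 ± 0.07 (adjusted p = 0.0003), and both were called under every alternative. SLC25A40 was at 7.31, 7.36 and 7.92 TPM with CCCP and 5.76, 5.86 and 5.77 TPM with rotenone, without overlap. The lower carrier was SLC25A5, at -0.07, which turned to 0.09 with quantile scaling. In KO cells 9 carriers were higher and 8 lower with CCCP (25.5% and 22.2% of all genes).

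**Figure D3:**
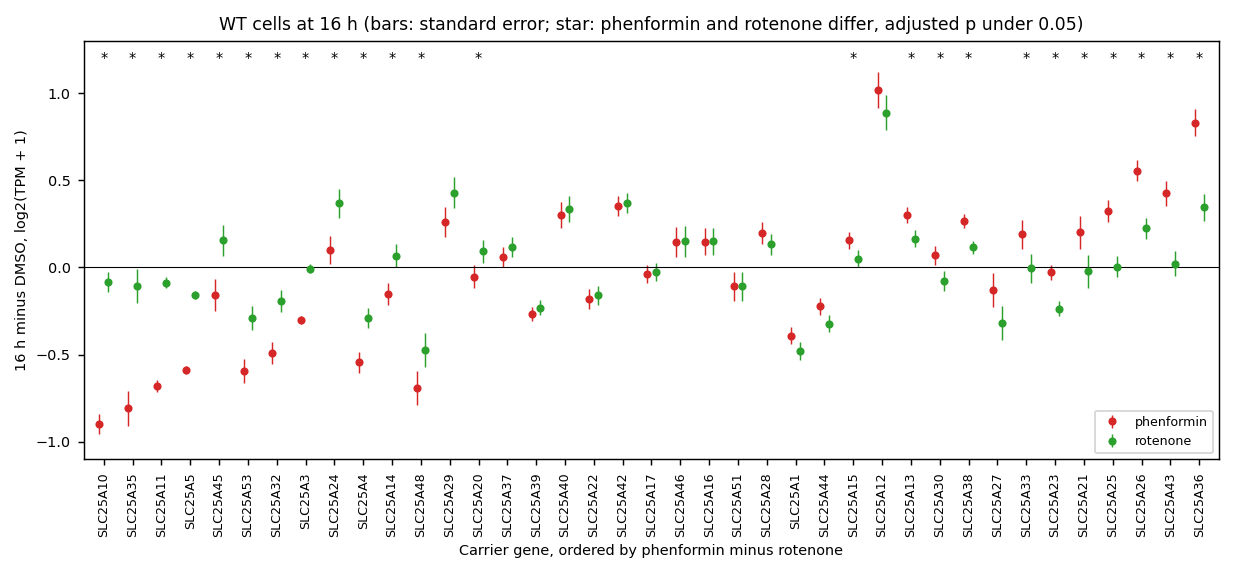
Change of 39 of the 40 carriers in AMPK WT cells after 16 h of Phen and of Rot, as the log2(TPM + 1) difference from DMSO, with SE bars from the fit and a star where the 2 compounds differed at an adjusted p under 0.05. SLC25A10, SLC25A11 and SLC25A35 lie far below 0 with Phen and near 0 with Rot, while SLC25A12 is high with both.

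In KO cells at 16 h, 8 carriers rose and 14 fell with 991 (34.8% and 27.1% of all genes), 12 and 14 with CCCP (39.6% and 29.3%), 10 and 18 with phenformin (41.2% and 37.7%) and 8 and 15 with rotenone (35.3% and 27.9%). The difference between the arms was tested as the KO response minus the WT response. For 991 it was called lower for 4 carriers and higher for 0 (10.0% and 4.96% of all genes; 9 carriers had an unadjusted p under 0.05 in limma). Median-ratio scaling gave 3 higher and 3 lower and quantile scaling 1 and 4. With CCCP it was called higher for 2 and lower for 6 (10.5% and 17.7%), with phenformin lower for 2 (10.5% of all genes lower, 3.38% higher; 3 higher and 1 lower with median-ratio and 1 and 3 with quantile scaling), and with rotenone lower for 2 (0.962% of all genes lower, 1.01% higher). SLC25A12, SLC25A4 and SLC25A42 were not among the carriers called in these differences.

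SLC25A43, a carrier whose substrate is not settled, was called in all 4 differences, but the call was lost in 7 of 9 alternatives with CCCP, 6 of 9 with rotenone and 2 of 9 with 991. It was at 4.90, 5.13 and 5.44 TPM in WT and 1.33, 0.707 and 1.178 TPM in KO cells with DMSO, without overlap (-1.58 ± 0.07, adjusted p = 3.5e-31). After 16 h of phenformin it was at 7.16, 7.71 and 6.94 TPM in WT (0.42, adjusted p = 2e-07) and at 0.349, 0.335 and 0.421 TPM in KO cells (-0.59, adjusted p = 2.3e-11). The difference of -1.01 ± 0.10 (adjusted p = 7.1e-12) was called under every alternative. In KO cells SLC25A43 was called lower in 15 of 16 comparisons. The same transcript was also low in control arms of other tables, which were normalized separately. It had a mean of 5.14 TPM with DMSO in TFEB and TFE3 WT cells, but 0.476 TPM in FNIP1 WT, 1.13 TPM in ESRRA WT and 0.718 TPM in siControl cells. SLC25A43 lies at chrX:119399295-119454474 (GRCh38), with 13.9 kb between it and SLC25A5 at chrX:119468400-119471396.

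With CCCP, SLC25A23, an ATP-Mg/phosphate carrier, was at 42.4, 40.3 and 39 TPM with DMSO and 34.9, 33.9 and 33.7 TPM at 16 h in WT cells. In KO cells it was at 46.1, 44.6 and 45.4 TPM with DMSO and 28.5, 27.6 and 28.03 TPM with CCCP. The fall was larger in KO cells, with a difference of -0.44 ± 0.06 (adjusted p = 6.1e-08). SLC25A5 fell in KO cells from 502, 481 and 483 TPM to 359, 355 and 353 TPM with CCCP and in WT cells from 616, 615 and 620 TPM to 531, 527 and 526 TPM; the difference was -0.23 ± 0.03 (adjusted p = 2.7e-08). SLC25A38 was at 20.4, 21 and 21.3 TPM with DMSO and 28.9, 26.7 and 29.05 TPM with CCCP in KO cells, against 18.99, 19.95 and 19.4 TPM and 21.4, 20.7 and 20.96 TPM in WT cells (difference 0.31 ± 0.06, adjusted p = 2e-05). The CCCP differences of SLC25A23, SLC25A5, SLC25A38 and SLC25A3 (-0.17) were called under every alternative.

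With 991, SLC25A14 was at 12.5, 11.6 and 12.7 TPM with DMSO and 16.04, 15.4 and 15.2 TPM at 16 h in WT cells, without overlap. In KO cells it was at 11.1, 10.4 and 10.8 TPM with DMSO and 10.1, 10.7 and 10.2 TPM with 991, and the groups overlapped. The difference was -0.37 ± 0.09 (adjusted p = 0.0025) and lost its call in 1 of 9 alternatives. SLC25A28, the iron carrier mitoferrin-2, was at 10.5, 11.6 and 11.6 TPM and then 12.3, 13.2 and 11.98 TPM in WT cells, and at 13.2, 14.5 and 15.9 TPM and then 12.95, 13.1 and 12.3 TPM in KO cells (difference -0.31 ± 0.09, adjusted p = 0.008, lost in 2 of 9 alternatives). SLC25A40 rose in both arms, to 4.12, 3.41 and 4.10 TPM from 2.52, 2.89 and 3.19 TPM in KO cells, and its difference of -0.30 ± 0.11 (adjusted p = 0.046) was lost in 7 of 9 alternatives.

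With DMSO alone, 8 carriers were higher and 11 lower in KO than in WT cells (16.2% and 22.7% of all genes; 12 and 10 with median-ratio and 13 and 10 with quantile scaling). Beside SLC25A43, the lower carriers included SLC25A53 (-0.59), SLC25A40 (-0.48), SLC25A4 (-0.38) and SLC25A5 (-0.34). SLC25A28 (0.34) and SLC25A10 (0.33) were among the higher. These 7 calls held under every alternative.

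The response to 991 at 16 h was also measured in the control arm of each of the 5 tables. FNIP1 WT cells had 3 carriers higher and 4 lower (11.6% and 4.87% of all genes; 2 and 5 with median-ratio scaling). TFEB and TFE3 WT cells had 16 higher and 11 lower (41.1% and 17.9%; 7 and 14, and 7 and 11 with quantile scaling), ESRRA WT cells 15 and 9 (31.2% and 15%; 4 and 9, and 5 and 7), and siControl cells 10 and 8 (44.6% and 12.4%; 5 and 13, and 6 and 12). Median-ratio scaling moved the median change of all genes by -0.12 in TFEB and TFE3 WT, -0.11 in DKO, -0.15 in siControl, -0.13 in siPGC1A and -0.34 in SA5 cells, so small changes there are relative to that shift. FNIP1 WT cells had the smallest share of called genes among these 5 arms. Calls in the same direction were counted over these arms for carriers only. The tallies below therefore have no share of all genes beside them. SLC25A42 rose and SLC25A4 and SLC25A44 fell in 5 of 5 control arms. SLC25A12, SLC25A24, SLC25A36 and SLC25A40 rose in 4, SLC25A3 and SLC25A33 fell in 4, and the other 30 of the 39 shared carriers were called one way in 3 or fewer. SLC25A36 had a change of -0.54 in FNIP1 WT cells, which was not called. With another scaling the calls of SLC25A36 and SLC25A40 were lost in TFEB and TFE3 WT and in ESRRA WT cells, that of SLC25A24 in ESRRA WT cells, and those of SLC25A3 in TFEB and TFE3 WT, ESRRA WT and siControl cells. SLC25A22, SLC25A23, SLC25A38 and SLC25A39 were called in opposite directions in different tables, and SLC25A37 and SLC25A51 were called in none.

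SLC25A42, at chr19:19063961-19113031 (GRCh38) in the files, was at 4.00, 4.59 and 4.02 TPM with DMSO and 6.97, 6.35 and 6.38 TPM with 991 in FNIP1 WT cells (0.54). It went from 3.32, 3.21 and 4.05 TPM to 6.26, 6.32 and 5.20 TPM in TFEB and TFE3 WT cells (0.61), and from 3.81, 4.77 and 3.59 TPM to 6.12, 5.92 and 6.07 TPM in ESRRA WT cells (0.48). The groups did not overlap in any of them. In siControl cells it went from 5.32, 5.59 and 5.29 TPM to 7.28, 6.99 and 6.71 TPM (0.32), a call that was lost with both other scalings. The promoter window shown for SLC25A42 held none of the 4 motifs searched.

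SLC25A4, at chr4:185143263-185150384, went from 12.4, 12.7 and 11.8 TPM to 10.3, 10.9 and 10.3 TPM with 991 in FNIP1 WT cells (-0.21, adjusted p = 0.025, lost in 4 of 10 alternatives). It fell from 13.5, 12.9 and 13.02 TPM to 11.3, 10.3 and 10.7 TPM in TFEB and TFE3 WT cells (-0.26), and from 13.7, 13.6 and 12.5 TPM to 10.5, 10.2 and 10.6 TPM in ESRRA WT cells (-0.32). In siControl cells it fell from 11.95, 12.3 and 11.9 TPM to 10.5, 9.92 and 8.86 TPM (-0.28). The treated and untreated libraries of SLC25A4 did not overlap in any control arm. SLC25A44 fell from 28.8, 27.9 and 28.7 TPM to 18.7, 19.5 and 18.9 TPM in FNIP1 WT cells (-0.56), by 0.63 in TFEB and TFE3 WT cells, by 0.26 in ESRRA WT cells and by 0.24 in siControl cells. SLC25A12 was called higher in the AMPK WT, TFEB and TFE3 WT, ESRRA WT and siControl arms, and in the last 3 the call was lost with another scaling.

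**Figure D4:**
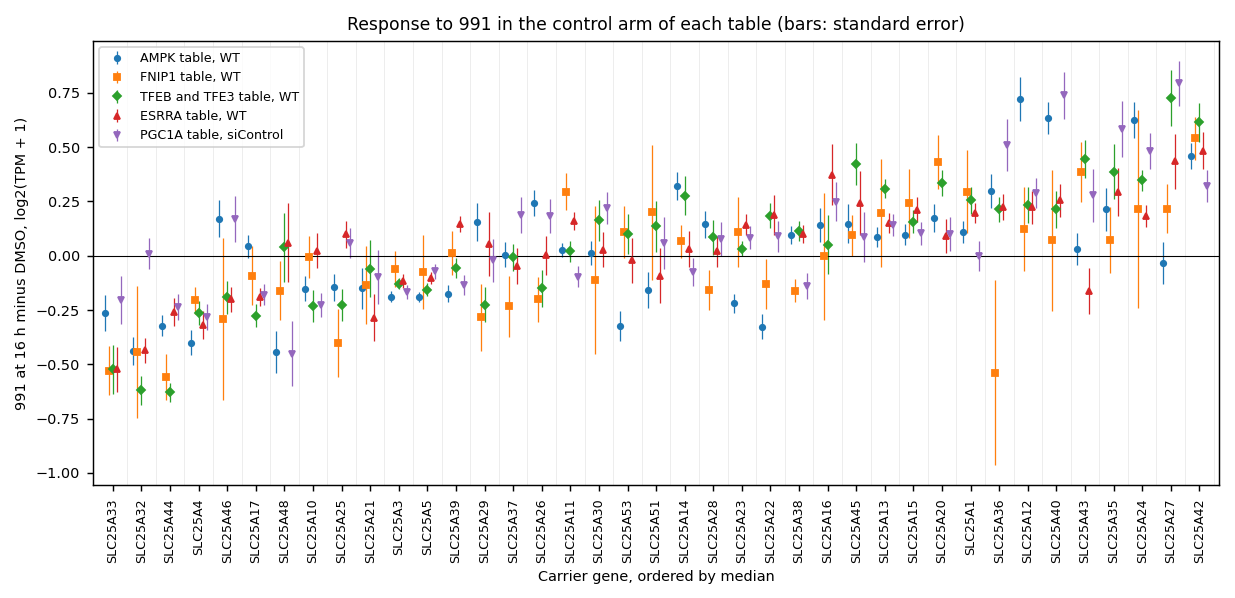
Change after 16 h of 991 in the control arm of each of the 5 tables (AMPK WT, FNIP1 WT, TFEB and TFE3 WT, ESRRA WT, siControl), as the log2(TPM + 1) difference from DMSO of the same arm with SE bars from each table's fit. SLC25A42 lies above 0 and SLC25A4 and SLC25A44 lie below 0 in all 5 arms.

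The TFEB and TFE3 DKO cells asked which carrier responses to 991 need these factors. In DKO cells 9 carriers rose and 6 fell at 16 h (35.7% and 12.5% of all genes; 5 and 14 with median-ratio and 4 and 9 with quantile scaling). The DKO minus WT difference was called higher for 2 carriers and lower for 2 (5.74% and 6.91% of all genes). SLC25A13, the aspartate-glutamate carrier citrin, was at 19.7, 20.5 and 20.2 TPM with DMSO and 25.3, 24.4 and 25.9 TPM with 991 in WT cells (0.31 ± 0.04, adjusted p = 8.7e-07). In DKO cells it was at 25.1, 26.6 and 23.8 TPM with DMSO and 21.3, 21 and 22.7 TPM with 991 (-0.20, adjusted p = 0.00037). The groups did not overlap in either arm and moved in opposite directions. The DKO minus WT difference in response was -0.51 ± 0.06 (adjusted p = 2.1e-06 by limma) and was called under every alternative. It was also called at 4, 8 and 24 h (-0.47, -0.46 and -0.44) but not at 2 h (-0.11). These times all share the same DMSO libraries, so they are not separate evidence. With DMSO alone SLC25A13 was itself called higher in DKO than in WT cells, under every alternative. The SLC25A13 window shown above holds 1 CACGTG, at -154 from the start site.

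SLC25A44 fell in both arms, from 21.96, 22.97 and 23.1 TPM to 14.7, 14.4 and 13.8 TPM in WT cells (-0.63 ± 0.04) and from 26.1, 26.3 and 24.6 TPM to 19.8, 19.7 and 20.1 TPM in DKO cells (-0.35). The difference was 0.28 ± 0.06 (adjusted p = 0.0027, lost without replicate 3) and was called from 4 to 24 h. SLC25A33, a pyrimidine nucleotide carrier, was at 6.80, 5.93 and 6.89 TPM with DMSO and 4.22, 4.81 and 3.74 TPM with 991 in WT cells (-0.52). In DKO cells it was at 6.24, 5.62 and 6.25 TPM and 5.13, 6.62 and 7.16 TPM, with overlap (0.04, adjusted p = 0.77). The difference was 0.57 ± 0.16 (adjusted p = 0.017), and it was lost without replicate 2 or without replicate 3. SLC25A45, near 1 to 2 TPM, differed by -0.43 ± 0.14 (adjusted p = 0.035, lost in 5 of 9 alternatives). The SLC25A33 window holds 1 CACGTG at -26, and the windows of SLC25A44 and SLC25A45 held none. The other carriers with CACGTG, SLC25A36, SLC25A38, SLC25A46 and SLC25A51, were not called in the DKO minus WT difference at 16 h. Whether CACGTG plays a part was not tested.

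With DMSO alone, 13 carriers were higher and 10 lower in DKO than in WT cells (37.6% and 13.7% of all genes; 9 and 17 with median-ratio and 9 and 16 with quantile scaling). SLC25A1 was at 58.5, 66.7 and 59.5 TPM in WT and 40.6, 45.5 and 41.03 TPM in DKO cells (-0.53 ± 0.06). SLC25A14 was at 13.3, 12.1 and 13.2 TPM in WT and 18.5, 19.4 and 17.7 TPM in DKO cells (0.49), and SLC25A36 at 15.05, 15.3 and 13.9 TPM and 19.3, 18.8 and 19.2 TPM (0.36). None of these groups overlapped. SLC25A43 (-0.38), SLC25A5 (-0.33) and SLC25A11 (-0.31) were lower and SLC25A25 (0.42), SLC25A22 (0.38), and SLC25A20, the carnitine-acylcarnitine carrier (0.37), were higher; all 9 calls held under every alternative.

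**Figure D5:**
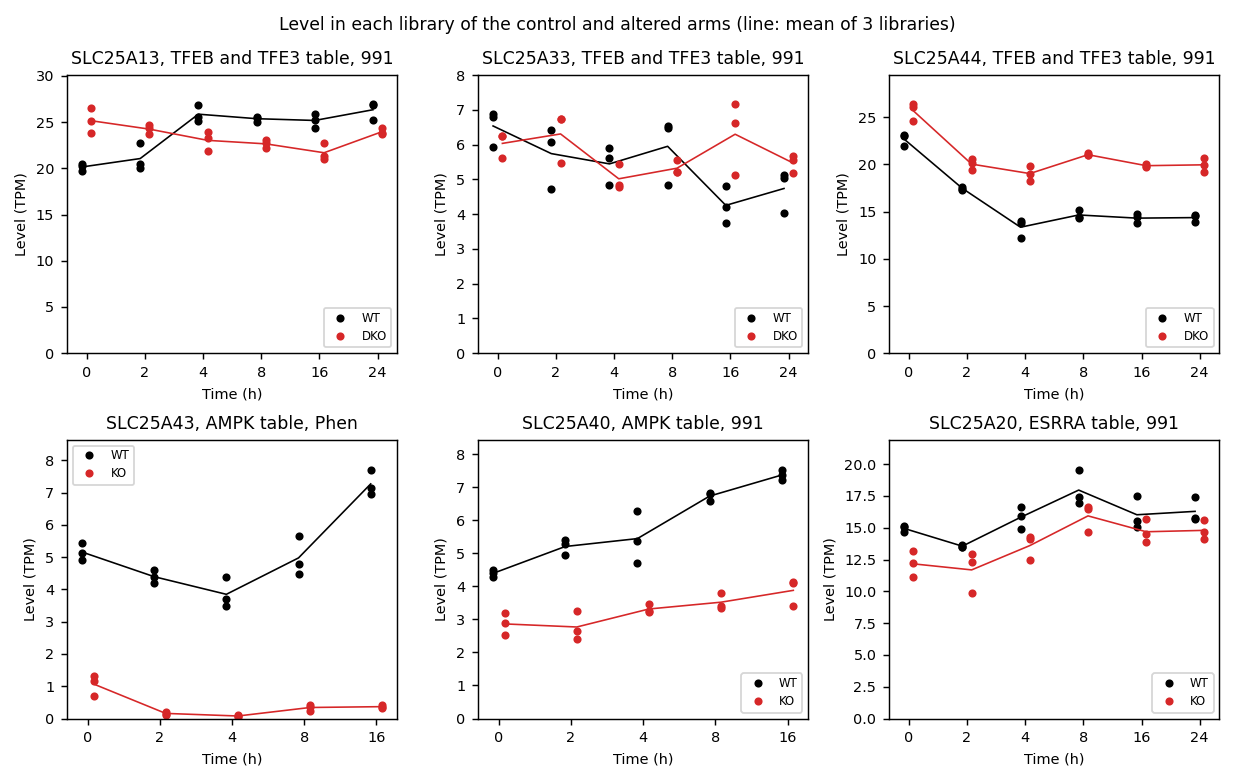
TPM per library against hours of treatment, 0 h being DMSO, in the control and altered arms: SLC25A13, SLC25A33 and SLC25A44 with 991 in TFEB and TFE3 WT and DKO cells, SLC25A43 with Phen and SLC25A40 with 991 in AMPK WT and KO cells, and SLC25A20 with 991 in ESRRA WT and KO cells. SLC25A13 lies higher after 991 in WT and lower in DKO cells from 4 h on, and SLC25A43 in AMPK KO cells stays below every WT library.

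ESRRA is known for driving genes of fatty acid oxidation and the respiratory chain. With DMSO, 1 carrier was higher and 6 lower in ESRRA KO than in WT cells (6.71% and 14.7% of all genes; 2 and 3 with either other scaling). SLC25A32 was at 19.6, 18.5 and 18.6 TPM in WT and 15.7, 14.9 and 14.6 TPM in KO cells (-0.31 ± 0.06, adjusted p = 0.00021). SLC25A13 was at 26, 25.3 and 25.5 TPM and 23.1, 19.9 and 20.4 TPM (-0.27 ± 0.05, adjusted p = 0.00016). Both were without overlap and called under every alternative. SLC25A20, which brings acylcarnitines in for fatty acid oxidation, was at 15.1, 14.7 and 15.1 TPM in WT and 12.2, 13.1 and 11.1 TPM in KO cells (-0.28 ± 0.08, adjusted p = 0.0098); that call was lost without replicate 1 or without replicate 3. SLC25A10, SLC25A11 and SLC25A42 were also called, each lost in at least 4 of 9 alternatives.

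With 991 at 16 h, 14 carriers rose and 8 fell in ESRRA KO cells (31.5% and 12.9% of all genes; 6 and 9 with median-ratio and 7 and 9 with quantile scaling). The KO minus WT difference was called for 0 carriers (2.84% of all genes), and 2 carriers had an unadjusted p under 0.05 in limma. An absence of calls does not show that ESRRA KO and WT cells responded alike. SLC25A20 changed by 0.25 at 8 h in WT cells (adjusted p = 0.011) and by 0.36 in KO cells (adjusted p = 0.00036), and at 16 h by 0.09 (adjusted p = 0.35) and 0.25 (adjusted p = 0.0086). Its difference at 16 h was 0.16 ± 0.11 (adjusted p = 0.49).

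With siPGC1A and DMSO, 5 carriers were higher and 7 lower than with siControl (14.3% and 9.89% of all genes). SLC25A25 was at 8.00, 9.11 and 8.51 TPM with siControl and 13.4, 11.2 and 13.2 TPM with siPGC1A (0.51 ± 0.07, adjusted p = 1.7e-06). SLC25A22 was at 8.19, 8.71 and 7.75 TPM and 11.5, 9.73 and 11.8 TPM (0.38). SLC25A39 went the other way, at 111, 119 and 117 TPM and 95.8, 94.3 and 94.7 TPM (-0.28), and SLC25A15 was at 9.91, 9.31 and 10.6 TPM and 8.10, 7.64 and 7.53 TPM (-0.32). None of these groups overlapped, and these 4 calls and those of SLC25A24 (-0.33), SLC25A5 (-0.26) and SLC25A3 (-0.16) held under every alternative.

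With 991 at 16 h, 13 carriers rose and 9 fell with siPGC1A (39.2% and 12.7% of all genes; 6 and 15 with median-ratio and 7 and 10 with quantile scaling). The siPGC1A minus siControl difference was called for 0 of 39 carriers (0.201% of all genes), and 2 had an unadjusted p under 0.05 in limma. An absence of calls does not show that siPGC1A and siControl cells responded alike. PPARGC1A, the target, was low even with siControl, at 0.484 TPM or less. SLC25A42 differed by 0.08 ± 0.11, SLC25A4 by 0.10 ± 0.08 and SLC25A44 by -0.11 ± 0.09.

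In the FNIP1 table the 2 libraries that stood apart entered every fit. With SA5, 16 carriers rose and 5 fell at 16 h of 991 (39.2% and 5.76% of all genes; 5 and 12 with median-ratio and 7 and 10 with quantile scaling), and with both libraries left out 12 rose and 9 fell. In FNIP1 WT cells, 8 rose and 13 fell without those libraries, against 3 and 4 with them. The share of all genes called without those libraries is not given here, so such counts are not read as a result about the carriers. SLC25A44 then changed by -0.56 in WT and -0.56 in SA5 cells, SLC25A42 by 0.54 and 0.41, SLC25A20 by 0.43 and 0.47, SLC25A32 by -0.44 and -0.47, and SLC25A33 by -0.53 and -0.46. The SA5 minus WT difference was called for 0 of 40 carriers (0.015% of all genes), and 5 had an unadjusted p under 0.05 in limma. It was also called for 0 without the 2 libraries. In simulated data for this table, a plain response was found for 31% of genes changed by 0.5 and 77% of those changed by 1. An absence of calls here therefore does not show that SA5 and WT cells responded alike. With DMSO, 0 carriers were higher and 4 lower in SA5 than in WT cells (1.69% and 8.64% of all genes; 1 and 1 with median-ratio and 2 and 0 with quantile scaling). Without the 2 libraries 3 were called, SLC25A12 at -0.21, SLC25A44 at -0.25 and SLC25A5 at 0.09. In SA5 DMSO replicate 1, SLC25A5 was at 271 TPM against 615 and 620 TPM in the other 2.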

How the data were processed

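Per the submitters' processing notes, the deposited TPM values came from reads handled with FastQC, STAR and HOMER on GRCh38; versions and strand handling are not given in the sources used here. The listed TPM of a library summed to 396341 to 449208, and read depth is unknown. The carriers and lists were chosen with earlier results of these data known. Genes at 1 TPM or more in 3 libraries of a table were fitted as log2(TPM + 1) in limma 3.58.1 (R 4.3.3) with a trended variance, 1 mean per group and all groups of a table together, and p-values were adjusted by Benjamini-Hochberg over all genes of a contrast. The deposited tables were analysed separately. The text names up to 5 rises and 5 falls of largest change among the called carriers of a comparison and a panel of well-described carriers; others were chosen after their values were seen. The fit was tested on simulated data, with 100 genes changed by 0.5 and 100 by 1 in a 16 h response. At 0.5 it found 31% of them in the FNIP1 table and 94 to 97% in the other tables. The changed genes were drawn from genes above a set mean level, and the response was a plain one of the control arm. These rates therefore do not apply to differences between arms or to carriers near 1 TPM. Alternatives were median-ratio and quantile scaling, a pseudocount of 0.1, no filter, fits on the compared groups only, a replicate block, each replicate left out, and, chosen after seeing the data, both SA5 libraries left out. No library pair was identical, and the lowest correlation between replicates was 0.986 to 0.991 outside the FNIP1 table and 0.887 in it. Counts cover every analysed carrier, and 1 carrier is not reported here by itself.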

Additional observations from a re-analysis of the deposited data

Results flagged for a closer look

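In the AMPK table the response at 16 h differed between KO and WT cells by a direct test for 10 carriers over the 4 compounds. Values are the KO response minus the WT response on the log2(TPM + 1) scale. With 991, 0 of 40 carriers were called higher and 4 lower (4.96% and 10% of all genes). With CCCP the counts were 2 and 6 (10.5% and 17.7%), with phenformin 0 and 2 (3.38% and 10.5%) and with rotenone 0 and 2 (1.01% and 0.962%). With 991 the difference was -0.45 for SLC25A43, -0.37 for SLC25A14, -0.31 for SLC25A28 and -0.30 for SLC25A40. With CCCP it was -0.44 for SLC25A23, -0.34 for SLC25A29, -0.33 for SLC25A14, -0.26 for SLC25A43, -0.23 for SLC25A5 and -0.17 for SLC25A3, and it was 0.31 for SLC25A38 and 0.14 for SLC25A11. With phenformin it was -1.01 for SLC25A43 and -0.17 for SLC25A38, and with rotenone -0.38 for SLC25A43 and -0.18 for SLC25A11. SLC25A43 was called with every compound, but its call was lost in 7 of 9 alternatives with CCCP and in 6 of 9 with rotenone. The calls of SLC25A40 with 991 and SLC25A29 with CCCP were each lost in 7 of 9, that of SLC25A38 with phenformin in 6 of 9, and those of SLC25A11 in 4 of 9 with CCCP and 3 of 9 with rotenone. The SLC25A43 level in KO cells was near 1 TPM or below, where the log scale with a pseudocount compresses changes. In the TFEB and TFE3 table the DKO response to 991 minus the WT response was -0.51 for SLC25A13, -0.43 for SLC25A45, 0.28 for SLC25A44 and 0.57 for SLC25A33. That difference was called higher for 2 and lower for 2 of 40 carriers (5.74% and 6.91% of all genes). The call of SLC25A45 was lost in 5 of 9 alternatives and that of SLC25A33 in 2 of 9.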

How the results depend on the processing

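Of 523 calls over the comparisons at 16 h and with DMSO, 271 were kept under every alternative and 22 had the opposite sign under at least 1. Median-ratio scaling lost 104, quantile scaling 135, the fit on the compared groups only 90, no filter 42 and a pseudocount of 0.1 lost 7. Same-numbered libraries did not all deviate together (median correlation 0.004 to 0.051 by table, lowest -0.259, highest 0.873), although 582 of 1683 pairs in the AMPK table had a correlation over 0.1, so the numbers were not taken as pairs, and a replicate block lost 4 calls and gained 16. The number of carriers called in the difference with CCCP was 5 (compared groups only), against 8. With phenformin it was 4 under both scalings and 1 (compared groups), against 2. With rotenone it was 1 (pseudocount) and 0 (compared groups), against 2. CCCP against rotenone in WT cells gave 15 with quantile scaling and with the compared groups only, against 9, and SLC25A5 reversed to 0.0906 there with quantile scaling. FNIP1 WT gave 19 (compared groups) and 21 (without both SA5 libraries), against 7, and SA5 gave 0 (compared groups), against 21. SA5 against WT with DMSO gave 2 under both scalings, 1 without the filter, 0 with the compared groups and 1 without SA5 DMSO replicate 1, against 4. ESRRA WT gave 13 and 12 with median-ratio and quantile scaling, against 24. ESRRA KO against WT with DMSO gave 3 without the filter and 4 with the compared groups, against 7. With each replicate left out in turn, the counts ran from 14 to 23 for 991 in AMPK KO cells (22 with all), 1 to 7, 5 to 9, 1 to 4 and 0 to 1 for the differences with 991, CCCP, phenformin and rotenone, 5 to 10 and 10 to 17 for CCCP against rotenone in WT and KO cells, 0 to 15 for FNIP1 WT, 6 to 20 for SA5, 0 to 1 for SA5 with DMSO, 2 to 3 for the TFEB and TFE3 difference, 11 to 19 for ESRRA KO, 2 to 5 for ESRRA KO with DMSO, 9 to 16 for siControl and 12 to 15 for siPGC1A. A fit without replicates has fewer libraries; otherwise the cause was not tested. The share of all genes called in each alternative fit is not given here. These counts describe how calls depend on the processing and are not read as results about the carriers. Read depth is unknown, so no interval from counting is given.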

Other observations

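The 4 analysed carriers on chromosome X, SLC25A5, SLC25A14, SLC25A43 and SLC25A53, were all lower in AMPK KO than in WT cells with DMSO, a grouping chosen after their values were seen; the call of SLC25A14 was lost in 6 of 9 alternatives. For each of these 4 carriers, every KO library with DMSO was also below every WT library. The share of chromosome X genes called lower is not given here, so the shares that follow use this lack of overlap. Over all analysed genes, every KO library was below every WT library for 194 of 465 genes on chromosome X (41.7%). Elsewhere this held for 3183 of 13152 genes (24.2%). Every KO library was above every WT library for 53 (11.4%) and 2146 (16.3%). The median KO minus WT difference was -0.11 on chromosome X and -0.02 elsewhere on the log2(TPM + 1) scale.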
